A study of Mus musculus with 18 samples.

Results

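The L1 family of cell adhesion molecules was followed through polysome RNA-seq of mouse brain slices. The members are the 4 genes L1cam, Nrcam, Chl1 and Nfasc, found by symbol, and all 4 are among the 13973 genes of the deposited table. They were chosen by measured values, namely the large rises that some of them had shown after homoharringtonine (HHT) in these same libraries, so the HHT to vehicle differences are described for them with no test. The study set HHT against vehicle in slices with and without FMRP, an RNA-binding protein missing in fragile X syndrome, and Fmr1 is its gene.

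All slices came from male C57BL/6N mice at postnatal day 28 to 35, either wild type (WT) or Fmr1 KO. They were kept for 30 min at 30 °C in DMSO vehicle or 20 µM HHT. HHT stops ribosomes that have just begun a coding sequence, and those further along can finish and leave. Per the labels' protocols, 10 slices pooled from 2 to 3 mice made 1 replicate, and the labels name the tissue both as hippocampal and as hippocampal-cortical. Tissue was homogenised without detergent and cleared at 2000 g and 10000 g before 1% NP-40 was added. Part of that lysate was sequenced as input, and the rest was run on a 15 to 45% sucrose gradient from which medium and heavy polysome pools were taken. Genotype, treatment and fraction together make 12 groups of the 18 libraries, and each HHT group holds 2 replicates while each vehicle group is 1 library. Totals ran from 6226237 to 13834652 estimated counts per library.

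L1 family proteins are single-pass membrane proteins whose ectodomains carry immunoglobulin-like domains followed by fibronectin type III repeats. They bind each other, contactins, neuropilins, integrins and matrix proteoglycans, and their short tails bind ankyrins, which tie them to the spectrin cytoskeleton. L1cam acts in axon growth and fasciculation, Nrcam and Nfasc gather sodium channels at axon initial segments and nodes of Ranvier, and Chl1 (close homolog of L1) acts in neurite growth and dendrite orientation. A glial form of Nfasc sits at the paranodal loops of oligodendrocytes. Their mRNAs are translated on the endoplasmic reticulum (ER), because the nascent chain starts with a signal peptide.

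Positions are on mm10, from GENCODE M21, which is built on the same assembly. L1cam lies on chromosome X at 73853778 to 73896105 on the minus strand, and Nrcam on chromosome 12 at 44328885 to 44601964 on the plus strand. Chl1 lies on chromosome 6 at 103510586 to 103750211 on the plus strand, and Nfasc on chromosome 1 at 132564690 to 132741797 on the minus strand. The annotation gives 3, 2, 4 and 5 complete coding transcripts for L1cam, Nrcam, Chl1 and Nfasc, and a count per gene cannot tell these isoforms apart. Other annotated genes overlap each locus, 2 at L1cam, 2 at Nrcam, 6 at Chl1 and 1, an antisense gene, at Nfasc. The sources used here do not say whether strand was used in counting, so reads of overlapping genes could be shared.

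The reference transcripts of the members have coding sequences of like length. They hold 1259 codons in L1cam, 1186 in Nrcam, 1209 in Chl1 and 1240 in Nfasc. The 3′ untranslated regions differ more, with 1080 bases in L1cam, 2173 in Nrcam, 3703 in Chl1 and 5730 in Nfasc. The GC content of the coding sequence was 53.7% in L1cam, 48.0% in Nrcam, 44.1% in Chl1 and 55.9% in Nfasc. The start of each coding sequence is shown because HHT-bound ribosomes are held at the start codon. The lines give the first 20 codons from GENCODE M21, with the start codon in capitals.
L1cam: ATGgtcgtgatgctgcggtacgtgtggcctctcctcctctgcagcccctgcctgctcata
Nrcam: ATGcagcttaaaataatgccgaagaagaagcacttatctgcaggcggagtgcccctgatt
Chl1: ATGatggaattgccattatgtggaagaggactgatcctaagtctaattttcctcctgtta
Nfasc: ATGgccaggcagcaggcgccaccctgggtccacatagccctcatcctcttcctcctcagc

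The codons of the ankyrin-binding motif of the tail, FIGQY (FIGAY in Chl1), are shown next, because this stretch marks the family. The motif stands once in each encoded protein, at codons 1227 to 1231 in L1cam, 1154 to 1158 in Nrcam, 1182 to 1186 in Chl1 and 1208 to 1212 in Nfasc. Its 15 bases are in capitals, within windows of 51 bases.
L1cam: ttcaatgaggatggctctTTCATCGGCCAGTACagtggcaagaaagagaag
Nrcam: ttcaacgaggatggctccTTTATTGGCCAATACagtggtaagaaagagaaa
Chl1: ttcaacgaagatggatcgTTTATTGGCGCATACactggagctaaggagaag
Nfasc: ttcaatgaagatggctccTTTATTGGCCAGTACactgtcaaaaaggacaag

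Within the motif Nrcam and Nfasc shared 14 of 15 bases, and L1cam and Chl1 shared 10, the fewest of the 6 pairs. Over the whole 51 bases the pairs shared 36 (L1cam and Chl1) to 44 (L1cam and Nrcam). The encoded proteins were identical at 35.4% (L1cam and Nfasc) to 45.0% (Nrcam and Nfasc) of aligned positions. How reads that match several members were shared out in counting is not known. The mean Kyte-Doolittle hydropathy over 19 codons, a measure of how hydrophobic a stretch is, peaked early in each protein and again near the end. The early window reached 1.90 in L1cam, 1.91 in Nrcam, 2.09 in Chl1 and 2.02 in Nfasc and began at codons 2, 19, 11 and 9. The late window, taken as the membrane span, reached 3.38, 3.27, 2.75 and 3.27 and left tails of 116, 116, 106 and 111 codons.

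**Figure D1:**
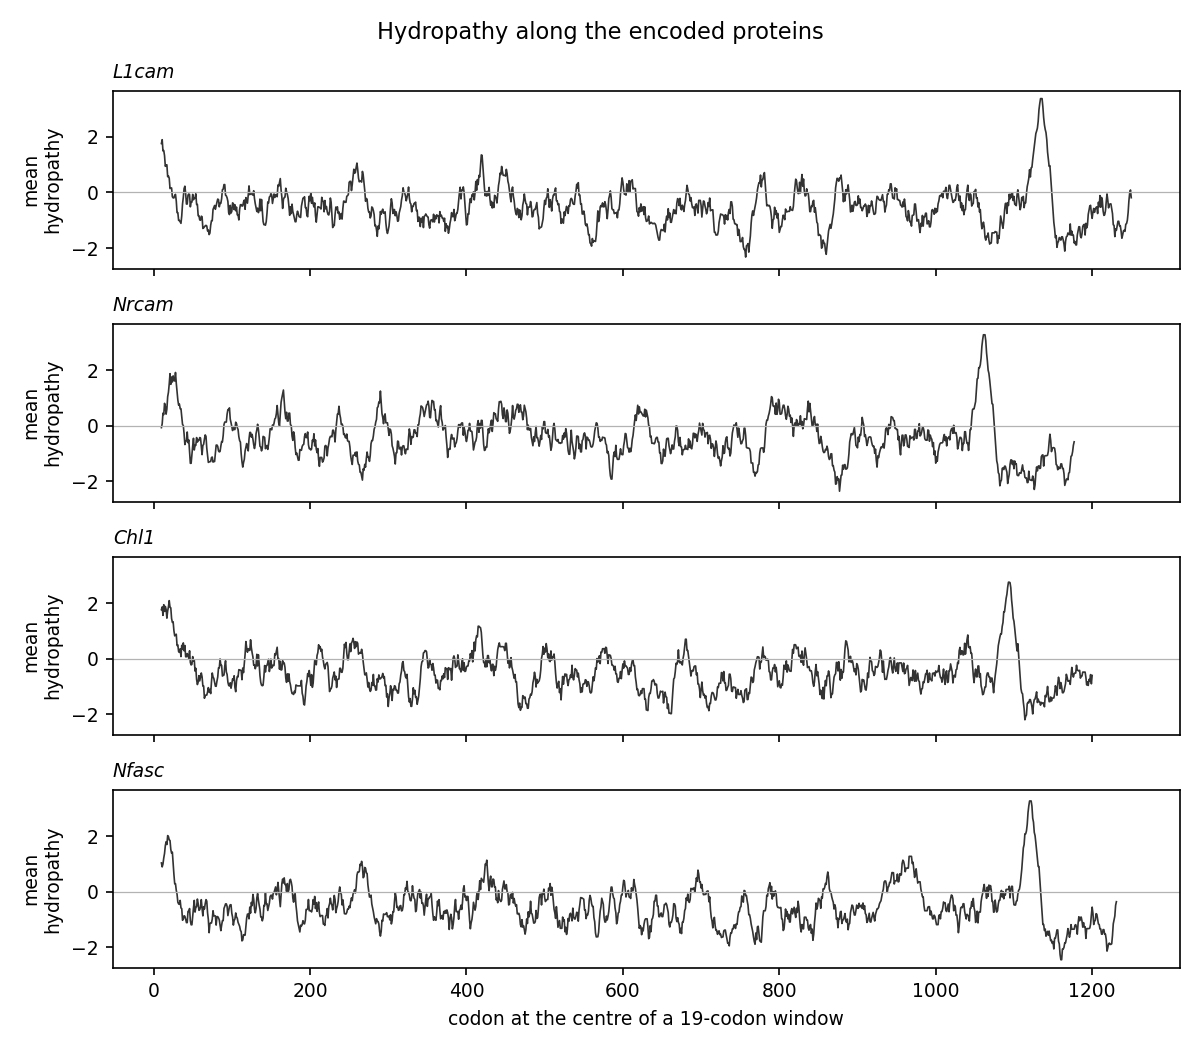
Mean Kyte-Doolittle hydropathy (vertical axis, no unit) in windows of 19 codons against the codon at the window's centre, for the reference coding sequence of each member. Each line has a peak at its left end, 1.90 to 2.09, and its highest peak near the right end, 2.75 to 3.38.

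Fmr1 in every library checks the genotype labels. It held 13.9 to 32.2 CPM (counts per 1000000, scaled with TMM factors) in the 9 WT libraries and 4.62 to 8.53 CPM in the 9 KO libraries, with no overlap. For the L1 family the HHT libraries split by replicate number in both genotypes. In input, replicate 1 was above replicate 2 by 1.72 to 3.18-fold over the 4 members and both genotypes, in medium by 1.25 to 2.14-fold, and in heavy the ratio was 0.925 to 1.38. The median difference of all genes between these replicates lay between -0.03 and 0.01 on the log2 scale. The names of the deposited tables mention 2 batches, but the sources used here do not say which libraries belong to which, so whether replicate 2 is a batch of its own is unknown. Both HHT replicates share the same vehicle libraries.

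All values are shares of the RNA of their own fraction, because every library was made from 200 ng of RNA. In such bulk samples fewer cells of a type and less RNA per cell cannot be told apart. L1cam, the founding member, held 31.1 CPM in WT vehicle input and 35.4 in KO, against 256 and 92.0 in the WT HHT input replicates and 275 and 127 in KO. In medium it held 23.4 CPM in WT vehicle and 27.8 in KO, against 313 and 147 in WT HHT and 328 and 189 in KO. In heavy it held 47.8 CPM in WT vehicle and 47.6 in KO, against 530 and 445 in WT HHT and 498 and 458 in KO. All 12 HHT libraries lay above all 6 vehicle libraries, the lowest HHT value being 92.0 CPM and the highest vehicle value 47.8. How many of all genes separate in this way was not counted, so nothing is read from it for any member. The fitted HHT to vehicle difference, averaged over genotypes, was 2.50 ± 0.46 (log2 ± SE, 4 libraries against 2) in input, 3.26 ± 0.48 in medium and 3.34 ± 0.48 in heavy. These were the largest positive differences of all 13973 genes in each of the 3 fractions. By edgeR 12.2% of all genes rose in input, 25.4% in medium and 27.1% in heavy, and nothing is read from the members against these shares, because this contrast chose them.

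Nrcam (neuronal cell adhesion molecule) held 86.3 CPM in WT vehicle input and 88.2 in KO, against 468 and 188 in WT HHT and 477 and 201 in KO. In medium it held 53.1 CPM in WT vehicle and 62.0 in KO, against 627 and 395 in WT HHT and 578 and 410 in KO. In heavy it held 78.8 CPM in WT vehicle and 102 in KO, against 653 and 473 in WT HHT and 717 and 558 in KO. Its lowest HHT library stood at 188 CPM and its highest vehicle library at 102. HHT stood above vehicle by 1.94 ± 0.40 (log2 ± SE) for input, 3.13 ± 0.43 for medium and 2.74 ± 0.42 for heavy, ranks 7, 2 and 17 from the top of all genes.

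Chl1 held 44.8 CPM in WT vehicle input and 46.6 in KO, against 144 and 79.5 in WT HHT and 153 and 48.0 in KO. In medium it held 23.9 CPM in WT vehicle and 27.8 in KO, against 211 and 165 in WT HHT and 171 and 136 in KO. In heavy it held 33.4 CPM in WT vehicle and 33.1 in KO, against 174 and 165 in WT HHT and 204 and 155 in KO. The KO HHT replicate 2 input stood only 1.03-fold above the KO vehicle input, while the other HHT input libraries stood 1.77 to 3.28-fold above vehicle. HHT stood above vehicle by 1.22 ± 0.36 (log2 ± SE) for input, 2.72 ± 0.40 for medium and 2.39 ± 0.40 for heavy, ranks 369, 6 and 50.

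Nfasc (neurofascin) held 143 CPM in WT vehicle input and 161 in KO, against 486 and 224 in WT HHT and 500 and 291 in KO. In medium it held 123 CPM in WT vehicle and 152 in KO, against 621 and 390 in WT HHT and 634 and 475 in KO. In heavy it held 194 CPM in WT vehicle and 237 in KO, against 1010 and 912 in WT HHT and 1020 and 1102 in KO. Within each fraction HHT and vehicle did not overlap, but WT HHT replicate 2 input at 224 CPM lay below KO vehicle heavy at 237. HHT stood above vehicle by 1.30 ± 0.30 (log2 ± SE) for input, 1.95 ± 0.31 for medium and 2.23 ± 0.31 for heavy, ranks 259, 122 and 83.

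**Figure D2:**
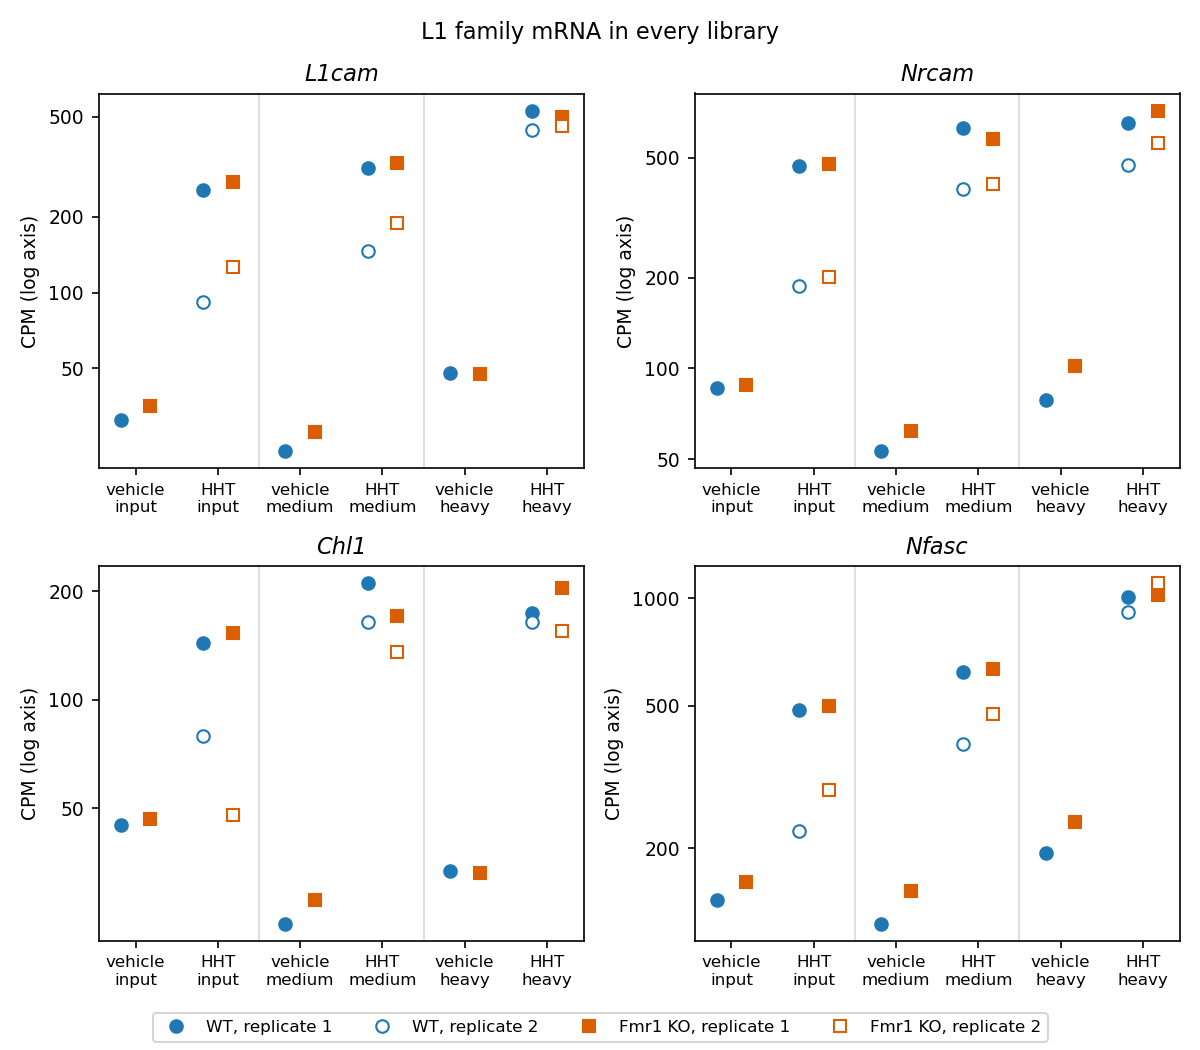
CPM of each member (log axis) in all 18 libraries, by treatment and fraction, with circles for WT, squares for Fmr1 KO, filled for replicate 1 and open for replicate 2. HHT libraries lie above vehicle libraries in every fraction, and in input the open HHT symbols lie below the filled ones, down to 48.0 CPM for Chl1 in KO.

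Taken by HHT replicate, an alternative chosen after the data were seen, the input rise of L1cam was 7.76 to 8.24-fold in replicate 1 and 2.96 to 3.6-fold in replicate 2. That of Nrcam was 5.41 to 5.42-fold and 2.18 to 2.28-fold, and that of Nfasc 3.1 to 3.39-fold and 1.56 to 1.8-fold. In heavy the replicates lay closer, with 10.5 to 11.1-fold and 9.31 to 9.61-fold for L1cam and 4.3 to 5.2-fold and 4.65 to 4.69-fold for Nfasc. Nrcam in heavy stood at 7.01 to 8.29-fold and 5.45 to 6-fold, and Chl1 at 5.21 to 6.16-fold and 4.69 to 4.95-fold. In medium L1cam stood at 11.8 to 13.4-fold and 6.27 to 6.8-fold, Nrcam at 9.33 to 11.8-fold and 6.62 to 7.45-fold, Chl1 at 6.14 to 8.85-fold and 4.9 to 6.9-fold, and Nfasc at 4.17 to 5.03-fold and 3.12 to 3.16-fold. Nfasc stood below the other members in each replicate there, and the ranges of L1cam and Nrcam met or overlapped.

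Levels can be compared between genes only per length, for which the deposited rescaled TPM, a score, was used. In vehicle input Nfasc stood at 45.9 and 50.6, Nrcam at 35.5 and 35.7, L1cam at 18.3 and 20.4 and Chl1 at 18 and 18.3 rescaled TPM, with L1cam and Chl1 not separated by more than their spread. In heavy under HHT Nfasc ran from 283 to 335, L1cam from 254 to 301, Nrcam from 189 to 290 and Chl1 from 59.2 to 79.9 rescaled TPM over 4 libraries, so Nfasc, L1cam and Nrcam overlapped and Chl1 did not. Chl1 was the lowest member in all 18 libraries. The order Nfasc, Nrcam, L1cam, Chl1 was seen in 8 of 18 libraries and Nrcam, Nfasc, L1cam, Chl1 in 6.

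Among the groups of each member, HHT libraries led and the 6 vehicle libraries came last by mean. L1cam means ran from 487 ± 60.2 CPM (SD, n = 2) in WT HHT heavy and 478 ± 28.8 in KO HHT heavy to 230 ± 118 and 259 ± 98.2 in medium and 174 ± 116 and 201 ± 104 in input. The medium and input groups were not separated by more than their spread. Nrcam stood at 638 ± 113 CPM in KO HHT heavy, 494 ± 119 in KO HHT medium and 339 ± 195 in KO HHT input (SD, n = 2), and neighbouring groups overlapped. Nfasc held 1061 ± 58.1 CPM (SD, n = 2) in KO HHT heavy and 961 ± 69.3 in WT, above 555 ± 112 and 505 ± 163 in medium and 395 ± 148 and 355 ± 185 in input. Chl1 differed in its leading group, WT HHT medium at 188 ± 32.9 CPM (SD, n = 2), which was not separated from KO HHT heavy at 180 ± 34.2 or WT HHT heavy at 170 ± 6.18.

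The fraction comparison asks where member mRNAs sit on the gradient relative to their own lysate. These tests use libraries that also enter the contrast that chose the members. Under HHT the heavy to input ratio of L1cam was 1.81 to 4.83 over 4 lysates, that of Nfasc 2.04 to 4.06, that of Nrcam 1.4 to 2.78 and that of Chl1 1.21 to 3.24. All 16 ratios were above 1, and for each member both replicate 2 lysates gave higher ratios than both replicate 1 lysates. By edgeR's quasi-likelihood test with Benjamini-Hochberg adjustment over all genes, L1cam was higher in heavy than in input by 1.36 ± 0.32 (adjusted p = 0.00277) and Nfasc by 1.43 ± 0.23 (adjusted p = 0.000174). Nrcam was higher by 0.84 ± 0.29 (adjusted p = 0.0241) and Chl1 by 0.72 ± 0.28 (adjusted p = 0.0397). So 4 of 4 members passed in this direction, as did 27.6% of all genes. The members' median was 1.10, and that of all genes -0.04. The members were chosen by HHT values of these same libraries. So the members' adjusted p-values, here and for the other ratios under HHT, are a description and not independent support. Nothing is read from member counts or medians against all genes in these ratios either.

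The calls of Nrcam and Chl1 in heavy against input were lost without WT HHT replicate 2 (adjusted p = 0.0714 and 0.217), without KO HHT replicate 2 (0.105 and 0.0771), by total counts in place of TMM (0.0781 and 0.142) and by DESeq2 (0.0599 and 0.081). Over the 10 alternatives their adjusted p ran from 8.33e-05 to 0.105 and from 0.00138 to 0.217, while L1cam and Nfasc passed in all 10. With total counts the median of all genes moved by -0.24 on the log2 scale, and 2382 genes were called higher and 6090 lower, against 3860 and 4250 with TMM.

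Medium against input under HHT gave ratios above 1 for every member in all 4 lysates, from 1.12 for Chl1 in KO replicate 1 to 2.84 for Chl1 in KO replicate 2. The fitted values were 0.68 ± 0.28 for Chl1 (adjusted p = 0.0794), 0.59 ± 0.29 for Nrcam (adjusted p = 0.142), 0.50 ± 0.23 for Nfasc (adjusted p = 0.115) and 0.38 ± 0.32 for L1cam (adjusted p = 0.403) by edgeR. So 0 of 4 passed, with 2 at unadjusted p under 0.05 and 0 by DESeq2, while 13.4% of all genes were called higher by edgeR. By total counts the calls over all genes were 1401 higher and 2818 lower, against 1866 and 2379 with TMM. With the lysate as a replicate block, which pairs fractions of the same tissue, Chl1 at 0.77 (adjusted p = 0.00513), Nrcam at 0.68 (adjusted p = 0.00291) and Nfasc at 0.53 (adjusted p = 0.012) passed by edgeR, and L1cam did not (adjusted p = 0.0708). Chl1 also passed without KO HHT replicate 1 (1.13, adjusted p = 0.00628) and Nfasc without WT HHT replicate 1 (0.64, adjusted p = 0.0398). Over the 10 alternatives the adjusted p of Nrcam, Chl1 and Nfasc reached 0.37, 0.285 and 0.338.

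In heavy against medium under HHT, Nfasc was higher by 0.93 ± 0.23 (adjusted p = 0.00653) and L1cam by 0.99 ± 0.32 (adjusted p = 0.0284) by edgeR. Nrcam stood at 0.25 ± 0.29 (adjusted p = 0.531) and Chl1 at 0.04 ± 0.28 (adjusted p = 0.927), and their intervals of -0.37 to 0.88 and -0.55 to 0.63 do not show that they lack a difference. In all, 2 of 4 members and 19% of all genes passed as higher in heavy. By total counts 1626 genes were higher and 4282 lower in heavy, against 2648 and 2354 with TMM, and the median of all genes moved by -0.18. Whether the members differ from each other in this ratio was not tested. L1cam lost its call without WT HHT replicate 2 (0.82, adjusted p = 0.0689), without KO HHT replicate 2 (0.84, adjusted p = 0.142) and by DESeq2 (adjusted p = 0.0715), within a range of 0.000253 to 0.142 over 10 alternatives. Nfasc lost it only without KO HHT replicate 2 among 10 alternatives (0.81, adjusted p = 0.0678; lowest 0.000159).

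Vehicle slices gave other ratios, and the difference from HHT was not tested for the members. Medium to input ratios were below 1 for every member in both lysates, from 0.533 to 0.597 for Chl1 and 0.615 to 0.703 for Nrcam up to 0.86 to 0.944 for Nfasc. Heavy to input ratios were 1.34 to 1.54 for L1cam and 1.35 to 1.47 for Nfasc, 0.914 to 1.16 for Nrcam and 0.71 to 0.745 for Chl1. None of these differences passed for a member in the edgeR fit of 12 groups, in which 10.2% of all genes were called higher and 9.5% lower in medium against input, and 24.8% and 21.7% in heavy against input. At unadjusted p under 0.05, 0 of 4 members stood in either comparison, and DESeq2 called 0. Each vehicle group is 1 library and was assumed to vary like the HHT groups. By total counts 1042 genes were higher and 1530 lower in medium against input, and 1836 higher and 5431 lower in heavy against input, against 1427 and 1328, and 3465 and 3028, with TMM, while the median of all genes in heavy against input moved by -0.39.

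Heavy against medium in vehicle stood at 0.90 ± 0.50 for L1cam (adjusted p = 0.147), 0.65 ± 0.43 for Nrcam (adjusted p = 0.229), 0.65 ± 0.33 for Nfasc (adjusted p = 0.114) and 0.37 ± 0.44 for Chl1 (adjusted p = 0.515), with 25.9% of all genes called higher by edgeR. With the lysate as a replicate block L1cam (adjusted p = 0.0146), Nrcam (adjusted p = 0.0228) and Nfasc (adjusted p = 0.0186) passed, and Nfasc also passed without either WT HHT replicate (adjusted p = 0.0385 and 0.039). Over the 10 alternatives these 3 reached 0.334, 0.545 and 0.414. By total counts 2617 genes were higher and 5712 lower, against 3616 and 3925 with TMM, and the median of all genes moved by -0.33.

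**Figure D3:**
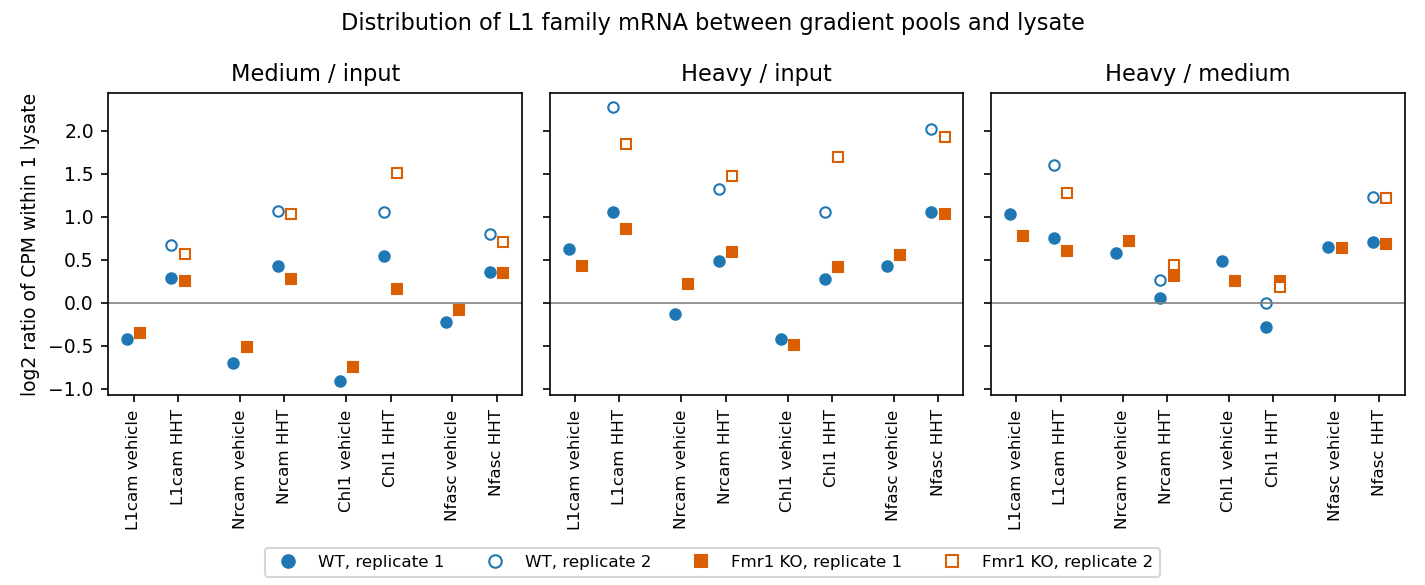
Log2 ratio of CPM between 2 fractions of the same lysate, for each member in vehicle (2 lysates) and HHT (4 lysates), with symbols as in the plot of CPM by library. Medium to input lies below 0 in vehicle and above 0 under HHT, and open symbols, HHT replicate 2, lie highest in heavy to input.

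The shift of these ratios from vehicle to HHT shares its libraries with the contrast that chose the members and is described only. The medium to input shift was 1.50 ± 0.51 for Chl1, 1.20 ± 0.52 for Nrcam, 0.76 ± 0.59 for L1cam and 0.65 ± 0.40 for Nfasc, beside a median of -0.01 over all genes. The heavy to input shift was 1.18 ± 0.51 for Chl1, 0.93 ± 0.40 for Nfasc, 0.84 ± 0.58 for L1cam and 0.80 ± 0.52 for Nrcam, beside 0.01. The heavy to medium shift was small beside its error, at -0.39 ± 0.52 for Nrcam, -0.33 ± 0.52 for Chl1, 0.29 ± 0.40 for Nfasc and 0.08 ± 0.60 for L1cam, beside 0.12.

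KO against WT under HHT asks whether member mRNAs depend on FMRP. No member passed the test between the genotypes in any fraction in the edgeR fit of 12 groups, in which 0% of all genes passed and 679, 387 and 412 genes had unadjusted p under 0.05 in input, medium and heavy. DESeq2 called 4, 2 and 1 genes, none a member. Fmr1, the gene deleted in KO, did not pass in the edgeR fit either. It was lower in KO by 3.99-fold in input, 3.06-fold in medium and 2.92-fold in heavy (edgeR adjusted p = 0.0647, 0.722 and 0.751). This test can thus miss differences of that size, and the members' lack of calls does not show that they lack a difference. L1cam stood at 0.20 ± 0.45 in input, 0.17 ± 0.45 in medium and -0.03 ± 0.45 in heavy, with edgeR adjusted p of 0.967, 0.999 and 1. Nrcam stood at 0.04 ± 0.41, -0.05 ± 0.41 and 0.18 ± 0.41. Chl1 stood at -0.17 ± 0.39, -0.29 ± 0.39 and 0.08 ± 0.39, and Nfasc at 0.15 ± 0.32, 0.13 ± 0.32 and 0.14 ± 0.32. The 95% intervals ran from -0.77 to 1.17 for L1cam in input, from -1.13 to 0.54 for Chl1 in medium and from -0.55 to 0.83 for Nfasc in heavy. With 2 libraries per genotype, differences within each member's interval are not excluded. In input the sign of every member turned with the lysate left out. Over 11 alternatives L1cam ran from -0.44 to 1.13 and Nrcam from -0.69 to 0.85, each lowest without replicate 1 of KO HHT and highest without replicate 1 of WT HHT. Chl1 ran from -1.21 without replicate 1 of KO HHT to 0.44 without replicate 2, and Nfasc from -0.30 without replicate 2 of WT HHT to 0.82 without replicate 1. In medium L1cam ran from -0.28 to 0.82, Nrcam from -0.34 to 0.32 and Nfasc from -0.16 to 0.51, while Chl1 stayed below 0 at -0.46 to -0.10.

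**Figure D4:**
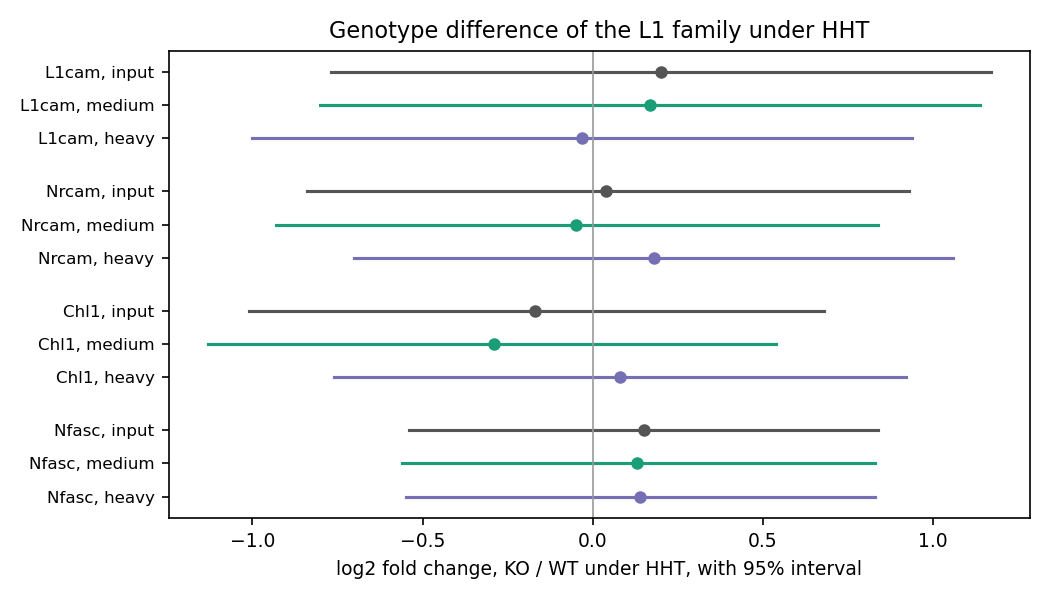
Log2 fold change of KO over WT under HHT (horizontal axis) for each member in input, medium and heavy, with points for the fitted value and lines for the 95% interval (2 libraries per genotype). All 12 intervals cross 0, and the fitted values lie between -0.29 and 0.20.

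In vehicle, with 1 library a side, KO over WT was 1.14 in input, 1.19 in medium and 0.996 in heavy for L1cam. It was 1.02, 1.17 and 1.3 for Nrcam, 1.04, 1.16 and 0.991 for Chl1, and 1.12, 1.23 and 1.22 for Nfasc. These ratios have no replicate check. The genotype by treatment difference, tested by edgeR, passed for 0 of 4 members and 0% of all genes in each fraction, with 214, 187 and 104 genes at unadjusted p under 0.05 in input, medium and heavy, and 0 calls by DESeq2. For the members it ran from -0.51 ± 0.73 (Chl1 in medium) to 0.09 ± 0.73 (Chl1 in heavy), so it is bounded only loosely. Its sign in input turned with the lysate left out, from -0.62 to 0.94 for L1cam, -0.72 to 0.82 for Nrcam, -1.26 to 0.38 for Chl1 and -0.47 to 0.65 for Nfasc over 9 alternatives. The genotype difference of the heavy to input ratio under HHT passed for 0 of 4 members and 0.00716% of all genes by edgeR, from -0.23 ± 0.64 for L1cam to 0.25 ± 0.55 for Chl1. Over 10 alternatives it ran from -1.02 to 0.34 for L1cam and from -0.22 to 1.08 for Chl1, in both lowest without replicate 1 of WT HHT and highest without replicate 1 of KO HHT. That of the medium to input and of the heavy to medium ratio passed for 0 of 4 members and 0% of all genes.

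Extracellular partners of the family rose with HHT in most cases. Tests of HHT against vehicle, for this and the other lists, take their spread from the HHT replicates alone, because each vehicle group is 1 library. All lists were chosen with earlier results of these data known, so their counts and p-values are not independent support. Of 25 listed and measured ligands and co-receptors, 18 rose and 0 fell in input by edgeR, where 12.2% of all genes rose and 0.215% fell, and their median was 1.10 against 0.00 for all genes. They included the neural cell adhesion molecule Ncam1 (1.73 ± 0.31, adjusted p = 0.00288), the proteoglycan core proteins Bcan (1.08 ± 0.17, adjusted p = 0.00167) and Ncan (1.42 ± 0.27, adjusted p = 0.00376) and the integrin subunit Itgb1 (0.99 ± 0.18, adjusted p = 0.00319). In medium 22 rose, among them Cntn1, the contactin that binds Nfasc and Nrcam (2.09 ± 0.26, adjusted p = 0.000105), and the integrin subunit Itgav (2.21 ± 0.30, adjusted p = 0.000145), where 25.4% of all genes rose and 21.5% fell. In heavy 23 rose, among them Nrp1, the semaphorin receptor that pairs with L1cam (1.81 ± 0.24, adjusted p = 4.16e-05), and the plexin Plxna2 (2.79 ± 0.39, adjusted p = 5.28e-05), where 27.1% of all genes rose and 24.7% fell.

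The counts in input depend on single lysates and on the contrast. Here and below, WT or KO libraries alone means the HHT to vehicle contrast of that genotype within the fit of all libraries. The spread used there comes from both genotypes. For KO in input, 1762 genes had unadjusted p under 0.05 in this contrast. The number of extracellular partners that rose in input ran from 12 to 20 when 1 HHT lysate was left out, and KO libraries alone gave 0 calls over all genes. By total counts 1386 genes rose and 230 fell in input, against 1702 and 30 with TMM. In medium 2987 rose and 3728 fell by total counts, against 3551 and 3011, and the median of all genes moved by -0.10 in input and -0.11 in medium. In heavy RLE factors moved that median by -0.11, with 3210 genes rising and 4079 falling against 3781 and 3451 with TMM.

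Cytoplasmic partners, 17 measured, had a median of 0.08 in input, 0.44 in medium and -0.09 in heavy. Of these 2 rose and 0 fell in input, a share near the 12.2% of all genes that rose there, namely the membrane-cytoskeleton linkers Ezr (0.61 ± 0.12, adjusted p = 0.00504) and Msn (0.66 ± 0.14, adjusted p = 0.00713). In medium 10 rose and 2 fell, beside 25.4% and 21.5% of all genes, with the spectrins Sptan1 (1.30 ± 0.18, adjusted p = 0.000159) and Sptbn1 (1.50 ± 0.26, adjusted p = 0.000492) rising and the clathrin adaptor subunit Ap2m1 falling (-1.01 ± 0.13, adjusted p = 0.000141). In heavy 7 rose and 8 fell, beside 27.1% and 24.7% of all genes, with Ank3, ankyrin-G of the axon initial segment, at 1.40 ± 0.24 (adjusted p = 0.000235) and Msn at -1.25 ± 0.14 (adjusted p = 1.24e-05). These are edgeR values, and Ank3 stood at -0.18 ± 0.22 (adjusted p = 0.766) in input. With KO libraries alone 5 rose in medium, and by limma 2 fell in heavy.

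Proteases that cut L1 family ectodomains or stubs were listed as a group of 9, all measured. Of these 5 rose in input, 8 in medium and 8 in heavy by edgeR, and 0 fell, beside 12.2%, 25.4% and 27.1% of all genes rising. The sheddase Adam10 rose by 0.71 ± 0.20 in input (adjusted p = 0.0292) and 1.53 ± 0.21 in medium (adjusted p = 0.000158). The beta-secretase Bace1, which cuts Chl1, rose by 0.69 ± 0.17 in input (adjusted p = 0.015) and 1.50 ± 0.18 in heavy (adjusted p = 1.79e-05). The input count of proteases ran from 2 to 5 with 1 HHT lysate left out, and with KO libraries alone 4 rose in medium.

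Of the genes of axon initial segments and nodes, 11 of 12 were measured, and 4 rose in input, 9 in medium and 10 in heavy by edgeR, beside 12.2%, 25.4% and 27.1% of all genes. In heavy 1 fell. The node sodium channel Scn8a rose by 1.08 ± 0.30, 1.81 ± 0.31 and 2.85 ± 0.33 in these fractions (adjusted p = 0.0273, 0.000488 and 1.54e-05). Cntnap2, which clusters potassium channels beside nodes, rose by 1.19 ± 0.31 in input (adjusted p = 0.0199) and 2.91 ± 0.34 in heavy (adjusted p = 1.75e-05). The input count ran from 0 to 5 with 1 HHT lysate left out, and with KO libraries alone 1 rose in medium.

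Other neuronal adhesion molecules of the immunoglobulin superfamily, 31 measured, rose in 18 cases in input, 27 in medium and 31 in heavy, with 0 falling in each by edgeR, beside 12.2%, 25.4% and 27.1% of all genes rising. Their medians were 0.84, 1.05 and 1.60, beside 1.62, 2.93 and 2.56 for the L1 family and 0.00, 0.03 and 0.06 for all genes. Examples in input were the neuroplastin gene Nptn (1.15 ± 0.15, adjusted p = 0.0011) and Igsf8 (1.43 ± 0.20, adjusted p = 0.0011). In heavy they included the synaptic adhesion molecule Cadm3 (1.91 ± 0.21, adjusted p = 1.07e-05) and the GPI-anchored neurotrimin gene Ntm (1.94 ± 0.21, adjusted p = 1.08e-05). The input count ran from 11 to 23 with 1 HHT lysate left out. The L1 family was chosen on this contrast, and its medians were not tested against these lists.

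**Figure D5:**
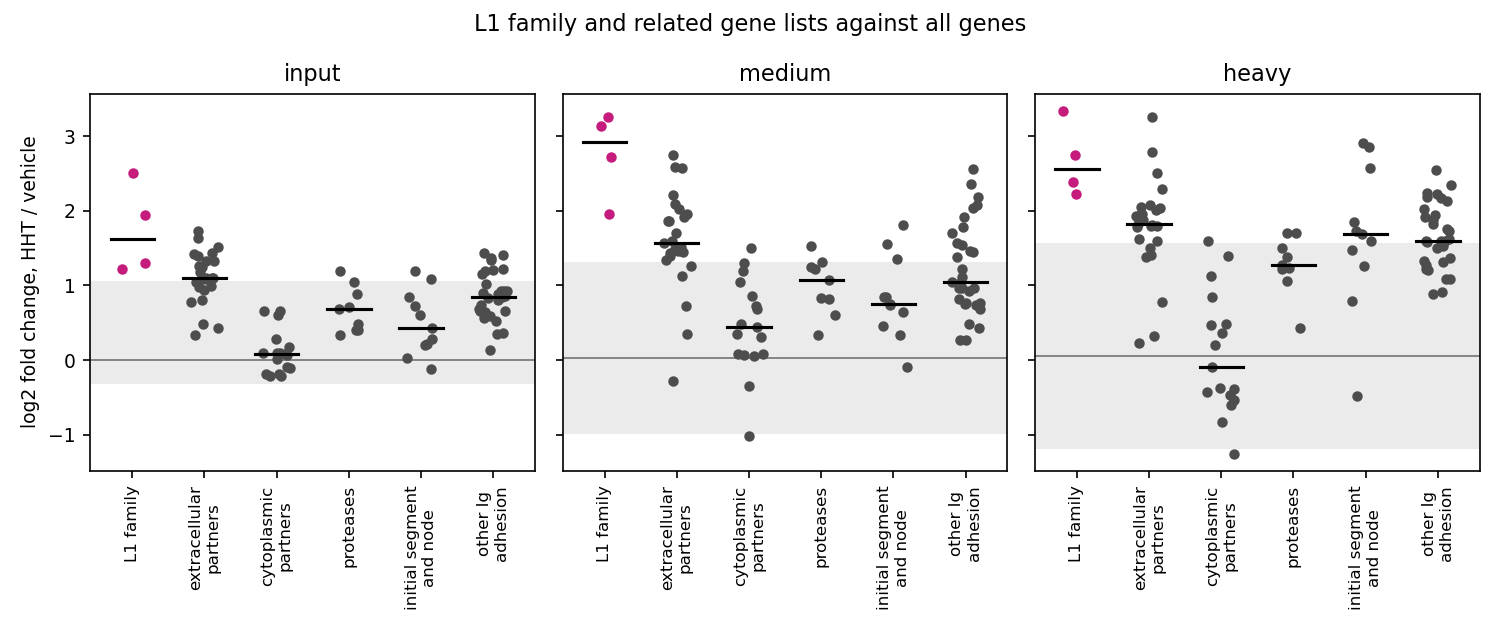
Log2 fold change of HHT over vehicle (vertical axis) for each gene of the L1 family (pink) and of 5 lists (grey), in input, medium and heavy, with black bars for list medians, a grey line for the median of all 13973 genes and a grey band from their 5th to 95th percentile. The L1 family lies above the band in each fraction, and the cytoplasmic partners have medians of 0.08, 0.44 and -0.09.

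Between the genotypes under HHT, 0 of the 25 extracellular partners, 17 cytoplasmic partners, 9 proteases, 11 initial segment and node genes and 31 other adhesion molecules passed in any fraction by edgeR. Fmr1 did not pass in that test either. Along the gradient under HHT, 12 extracellular partners were higher in heavy than in input and 1 was lower. The former included the plexins Plxna1 (1.70 ± 0.22, adjusted p = 3.14e-05) and Plxna4 (1.82 ± 0.26, adjusted p = 6.12e-05), and the latter was the small glycoprotein Cd24a (-1.28 ± 0.15, adjusted p = 1.13e-05). Of cytoplasmic partners 10 were higher and 4 lower in heavy, with Ank2, which encodes ankyrin-B, at 1.71 ± 0.15 (adjusted p = 2.6e-06) by edgeR. Of 11 initial segment and node genes 10 were higher and 0 lower, with Scn8a at 1.63 ± 0.23 (adjusted p = 6.82e-05). Of 31 other adhesion molecules 18 were higher and 4 lower, with the homophilic adhesion molecules Sdk2 at 2.09 ± 0.22 (adjusted p = 6.16e-06) and Dscam at 1.36 ± 0.16 (adjusted p = 1.24e-05). Of 9 proteases 2 were higher, Bace1 at 0.79 ± 0.13 (adjusted p = 0.000224) and Furin at 0.84 ± 0.16 (adjusted p = 0.000505), and 1 was lower, the gamma-secretase subunit gene Psenen at -1.06 ± 0.16 (adjusted p = 0.000127). The number of proteases higher in heavy ran from 2 to 4 with 1 HHT lysate left out, with 4 without replicate 1 of WT. By edgeR 27.6% of all genes were higher and 30.4% lower in this comparison.

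Markers of cell types moved with HHT as well, and their part in the results was not tested. The counts of rising markers in input stand beside 12.2% of all genes rising there by edgeR. In input the summed level of 8 vessel markers was 32.3 to 38.5 CPM in vehicle and 81.5 to 96.6 under HHT, and 5 of 8 rose. The sum of 8 microglia markers was 75.4 to 108 CPM and 161 to 191, with 5 of 8 rising. The 8 oligodendrocyte markers summed to 3256 to 3481 CPM and 3809 to 4436 with 3 rising, the 5 precursor markers to 221 to 246 and 272 to 319 with 3 rising, and the 8 astrocyte markers to 1671 to 1909 and 2286 to 2754 with 3 rising. The 10 neuron markers summed to 11190 to 11792 CPM in vehicle and 11750 to 13091 under HHT, and 2 of 10 rose, beside 12.2% of all genes. In medium the astrocyte sum was 1347 to 1742 CPM in vehicle and 3017 to 3386 under HHT, and in heavy it was 2605 to 2708 and 2578 to 3648, which overlap. The microglia sum was 66.4 to 72.6 CPM and 88.2 to 118 in medium, and in heavy 69.1 to 72 and 53.1 to 80.9, which overlap as well. The vessel sum was 33.3 to 38.7 CPM and 60.6 to 80.4 in medium, and 32.5 to 33.7 and 48.4 to 65.8 in heavy. Precursor markers were lower under HHT in medium, summing to 360 to 394 CPM in vehicle and 300 to 339 under HHT. In heavy they were higher, at 213 to 229 and 278 to 329. Oligodendrocyte markers summed to 3339 to 3373 CPM and 3567 to 4361 in medium, and 3302 to 3361 and 3626 to 4098 in heavy. The neuron sum was higher under HHT in medium, at 10269 to 11030 CPM and 13619 to 14043, and lower in heavy, at 16278 to 16551 and 13177 to 14245. The 2 measured peripheral nerve markers of 4 summed to 12.3 to 17.7 CPM in vehicle and 26.7 to 33.1 under HHT in input. In medium this sum was 14.5 to 14.9 and 18 to 22.6, and in heavy 9.81 to 12 and 15.3 to 18.6, with no overlap in any fraction. Of these lists 0 measured markers were at 0, so mRNAs that mark neurons and each of these glial and vessel cell types were measured.

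The genes most like each member over the 18 libraries were found by Pearson's r of log2 CPM among 10787 genes compared, as a description without a p, since treatment and fraction set most of the spread and the libraries fall into HHT and vehicle clusters. For L1cam they were Astn2 and Astn1 (astrotactins, neuronal membrane proteins of glial-guided migration), the netrin receptor family member Neo1, the paranodal protein Cntnap1 and the calcium channel subunit Cacna2d3, with r from 0.994 to 0.995. For Nrcam they were the sodium leak channel Nalcn, the AMPA receptor subunit Gria1, the calsyntenin Clstn2, the lipid flippase Atp8a1 and the calcium pump Atp2b3, at 0.991 to 0.992. For Chl1 they were the inositol transporter Slc5a3, Cacna2d1, Fstl5, the ephrin receptor Epha5 and Itgav, at 0.978 to 0.984. For Nfasc they were Abca3, the adenylyl cyclase Adcy9, Sez6l, Disp2 and the calcium pump Atp2b2, at 0.994 to 0.996. Among themselves the members reached 0.900 (Chl1 and Nfasc) to 0.980 (L1cam and Nfasc), and Nrcam stood at rank 6 in the list for Chl1. Every other rank of a member lay between 31 (L1cam in the list for Nrcam) and 653 (Chl1 in the list for Nfasc).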

How the data were processed

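RNA of 18 libraries was analysed from 2 deposited tables. Tools in the submitters' processing notes are RSEM 1.2.11, Bowtie2 2.1.0, Trimmomatic 0.32 and DESeq2 1.16.1, and mm10 is the build there; roles and order are absent. The first deposited table holds estimated counts (expected counts), of which 0 of 251514 were whole within 1e-06. The second, called TPM by the authors, is treated as a score (rescaled TPM), because 10 of 18 columns sum to over 1000000. The table names mention 2 batches. How genes were selected, which libraries each batch holds, and whether values were batch adjusted, the sources used here do not say; an adjustment would understate the spread.

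Counts were rounded and fitted with edgeR 4.0.16 (R 4.3.3, TMM, quasi-likelihood F-test) as 12 group means, with 6 residual degrees of freedom. The low-count filter kept all 13973 genes, so the alternative without a filter repeats the main fit. Tests are two-sided, adjusted within each of 21 comparisons at 0.05. Alternatives were limma 3.58.1 on log2(rescaled TPM + 1), DESeq2 1.42.0, other scalings (RLE, total counts), no filter, fewer libraries and blocks. Contrasts of a single genotype within the fit of all libraries were also taken. The scripts were tested on simulated data. P-values measure the spread between these pooled-slice replicates. Only the HHT groups, with 2 replicates each, supply that spread. Vehicle groups are 1 library each and were assumed to vary like the HHT groups.

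Fractions of 1 replicate share a lysate per the labels' protocols, so numbers pair them. Deviations correlated across genes at r = 0.0142 to 0.349. Labels do not say that WT and KO numbers share a preparation.

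Members and lists were chosen with earlier results of these data known. Named genes are the members, Fmr1, up to 4 called genes per list and comparison by smallest p (and Ank3 in input, added after its value was seen), and the 5 genes of highest r per member with a mean of at least 5 CPM, predicted models left out. Blood markers (2 of 5 measured) summed to 0.749 to 27.8 CPM over HHT and vehicle libraries.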

Additional observations from a re-analysis of the deposited data

How the results depend on the processing

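Among the alternatives, the one without a filter repeats the main fit, so its agreement was fixed in advance. Of 600 member values with a test, 577 kept their side of the threshold, 12 lost and 11 gained a call. Of 264 described values 262 kept their sign and stayed within the replicate SD and 2 changed sign. These 2 are the heavy to medium shift of L1cam (0.08 ± 0.60), which turned to -0.08 without replicate 2 of WT HHT and -0.06 without that of KO, within -0.08 to 0.34 over the lysates left out. Counts over all genes moved by over 1.5 times as follows, and the cause was not tested. HHT against vehicle in input called 1732 genes, and 847 by limma, 956 with WT alone and 0 with KO alone, and 1143 to 1833 with 1 lysate left out. In medium 6562 became 2655 with KO alone. WT alone and KO alone are contrasts of a single genotype within the fit of all libraries. KO against WT under HHT called 0 genes in each fraction, and DESeq2 4, 2 and 1, limma 1 in input, 2 without KO HHT replicate 1 (0 to 2 over the lysates left out) in input, and the 4 HHT libraries of medium alone 2. With replicate number as a replicate block it called 6, 306 and 62, Chl1 in medium among them (-0.29, adjusted p = 0.0185, 0.0185 to 1 over alternatives). WT and KO deviations correlated at r = 0.323, 0.165 and 0.00332 in input, medium and heavy, beside 0.0142 to 0.349 for fractions of the same lysate. These values cannot decide whether the numbers pair the genotypes. Labels do not say that they do, and the main fit has no such block. With 1 lysate left out, medium against input under HHT called 1261 to 3520 (4245 in all), heavy against medium 2391 to 4442 (5002) and the medium to input shift 1007 to 2276 (2415). The single gene called in KO against WT for heavy to input was 0 with the lysate block, with RLE factors and with any lysate left out. The lysate block changed no member's call other than those given for medium against input under HHT and heavy against medium in vehicle. Depth was 6226237 counts or more per library, and no member had under 177 counts in a library.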
